A study of Mus musculus with 2 samples.

Results

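The ligands Cxcl9, Cxcl10 and Cxcl16 and the receptors Cxcr3 and Cxcr6, 5 of the 32285 genes counted, were taken by gene symbol from single-cell RNA sequencing of mouse pancreatic tumors. KPC cells, a line of mouse pancreatic cancer made with Pdx1-cre, were injected into the pancreas of male mice, and the tumors were collected a few weeks later. The library labelled FLOX came from mouse hosts with floxed alleles (MCT1 fl/fl) of Slc16a1, the gene of the lactate transporter MCT1. The library labelled MCT1-KO came from hosts of the Col1a2-CreERT2-MCT1-/- line, in which tamoxifen, given before implantation, switches on a Cre recombinase driven by the Col1a2 promoter. That promoter is active in collagen-producing cells such as pancreatic stellate cells (PSCs), so the injected tumor cells were not its target. The study's scheme names tamoxifen or corn oil as the injection, and which of them the FLOX hosts received is not stated. The study's methods give an age only for C57BL/6 mice at purchase, with none stated for the hosts of the Cre line, and whether cells of several animals were pooled is not given in the sources used here. Each condition was 1 library, so all differences below are between 2 libraries, without a test, a standard error or a p-value. The intervals in brackets are 95% intervals that cover counting error only.

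Cxcl9 and Cxcl10 are secreted chemokines that interferon induces, and they attract activated T cells and NK cells through the receptor Cxcr3. Cxcl16 is made as a membrane-bound chemokine that the proteases Adam10 and Adam17 can release, and its receptor Cxcr6 is carried by activated and tissue-resident T cells. In tumors, myeloid cells are known sources of all 3 ligands, and PSCs and tumor cells can also make Cxcl10.

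Cxcl9 (ENSMUSG00000029417, chr5:92321347-92328079, minus strand) and Cxcl10 (ENSMUSG00000034855, chr5:92346638-92348889, minus strand) were neighbours on GRCm38, 18558 bases apart. Because these neighbours differed in which clusters held them most, their promoters are shown, as RefSeq gives them on GRCm38.p6 (chr5:92328080-92328329 and chr5:92348890-92349139, both minus strand, 5′ to 3′, ending 1 base before the gene). Capitals mark matches to the interferon-stimulated response element (ISRE) core GAAANNGAA and to the kB motif GGNNNTTCC.
Cxcl9: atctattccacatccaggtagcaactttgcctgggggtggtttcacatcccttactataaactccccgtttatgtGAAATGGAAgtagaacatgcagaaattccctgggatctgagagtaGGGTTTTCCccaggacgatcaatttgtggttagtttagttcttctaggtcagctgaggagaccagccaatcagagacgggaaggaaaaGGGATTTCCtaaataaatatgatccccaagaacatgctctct
Cxcl10: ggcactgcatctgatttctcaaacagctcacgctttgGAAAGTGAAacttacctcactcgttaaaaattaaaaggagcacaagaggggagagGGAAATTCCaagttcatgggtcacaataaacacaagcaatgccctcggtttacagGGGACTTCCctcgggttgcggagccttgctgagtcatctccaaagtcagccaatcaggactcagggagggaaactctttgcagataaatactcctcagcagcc

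Both windows held an ISRE core on the gene's strand, at bases -175 to -167 of Cxcl9 and -213 to -205 of Cxcl10. The kB motif was found at -130 to -122 and -42 to -34 of Cxcl9 and at -158 to -150 and -103 to -95 of Cxcl10, the former of these on both strands. The interferon-gamma activated site (GAS), searched as TTCNNNGAA, was in neither window. Over 27025 promoters of this length, searched on both strands, 7.16% held the ISRE core, 15.6% the kB motif and 7.18% the GAS letters. None of the 3 motifs was in the windows of Cxcr3 and Cxcr6. Cxcl16 (ENSMUSG00000018920) lies at chr11:70453983-70459984 on the minus strand, Cxcr3 (ENSMUSG00000050232) at chrX:101731535-101734269 on the minus strand and Cxcr6 (ENSMUSG00000048521) at chr9:123806475-123811760 on the plus strand. All 5 are protein-coding. Cxcl10, Cxcl16 and Cxcr6 overlap the genes Art3, Zmynd15 and Fyco1 on the other strand, and how the counting used strand is not given in the sources used here, so reads from the overlaps cannot be told apart.

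The libraries held 177334432 and 151118092 unique molecules (UMIs) in FLOX and MCT1-KO, given in this order throughout. Of these, 8739 and 11689 cells passed the limits on UMIs, genes and mitochondrial share, and they held 34.5% and 53.9% of the UMIs. The libraries shared 59 barcode sequences among kept cells. Clusters were named by fixed marker genes, and 7 classes had at least 50 cells in each library: ductal-like (2581 and 3737 cells), PSC-like (234 and 422), endothelial-like (120 and 145), myeloid-like (2594 and 2220), neutrophil-like (758 and 705), dendritic-like (115 and 109) and T/NK-like cells (568 and 502). The ductal-like name is weak, since none of the ductal markers was among the 10 genes that led its clusters 2, 4, 6 and 16. Levels are given as CPM, a gene's UMIs as a part of all UMIs of the class, scaled to 1e6. In ductal-like cells the PSC-like markers summed to 3011 and 2027 CPM, more than the ductal-like markers with 1407 and 1864 CPM. In PSC-like cells the PSC-like markers summed to 37336 and 25591 CPM. The collagen genes among them, Col1a1, Col1a2 and Col3a1, made up 188 and 110 CPM of ductal-like cells, below free RNA with 568 and 414 CPM. In PSC-like cells Slc16a1 was at 25.5 and 35.5 CPM, a ratio of 1.39 (1.00 to 1.95), so its level was not lower in the library labelled MCT1-KO. Counts over the whole gene do not show whether a floxed stretch was lost. The sum of 10 heat shock genes was lower in that library in all 7 classes, for example 5886 and 2234 CPM in myeloid-like cells, and 10 acinar enzyme genes made up 345 and 18302 CPM of free RNA, measured in barcodes of 10 to 100 UMIs. The part of the heat shock genes in the results below was not tested, and values with free RNA subtracted are given where they changed a direction.

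Cxcl9 had its highest class level in myeloid-like cells. It was at 1311 CPM (1293 to 1329) in FLOX and 933 CPM (916 to 951) in MCT1-KO. Endothelial-like cells followed with 865 and 280 CPM, and dendritic-like cells with 477 and 127 CPM. These 3 classes held the same order in both libraries. Ductal-like cells had 223 and 113 CPM and PSC-like cells 123 and 81.4 CPM, while neutrophil-like cells had the least, from 69 and 20 UMIs. Free RNA held 340 and 172 CPM of Cxcl9, and ductal-like, PSC-like, neutrophil-like and T/NK-like cells lay below that level in both libraries, as did dendritic-like cells in MCT1-KO. The T/NK-like level of 176 and 93.9 CPM was carried by cluster 22, 54 cells whose second-best marker score was myeloid-like and which held 322 of 415 and 146 of 161 UMIs. Without this cluster the level was 45.0 and 9.47 CPM.

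Within the myeloid-like cells Cxcl9 was highest in cluster 1, led by Ccl8, Apoe and Ms4a7 with the complement genes C1qa, C1qb and C1qc of tissue macrophages. It reached 1593 CPM (1567 to 1619) and 1264 CPM (1235 to 1292) there. The dividing cluster 14, led by histone genes and Mki67, was close to it with 1255 and 1074 CPM. Cluster 7, led by Arg1, F13a1 and Il1a, had 735 and 593 CPM. Cluster 10 was the lowest with 655 and 291 CPM, although Apoe, C1qa, C1qb and C1qc were among its leading genes too. Its cells were shallow, with a median of 1111 UMIs. A small cluster counted as ductal-like, cluster 16, matched cluster 1 with 1592 and 1297 CPM. It was led by the interferon-induced GTPase genes Gbp6, Iigp1, Gbp2 and Gbp5, and held 107 and 128 cells. The other ductal-like clusters ranged from 104 to 323 CPM in FLOX and from 31.3 to 114 CPM in MCT1-KO. So the ductal-like value joined few cells with a high level to many with a low one, and the tenth of ductal-like cells with the most Cxcl9 held 83.6% and 92.6% of its UMIs.

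**Figure D1:**
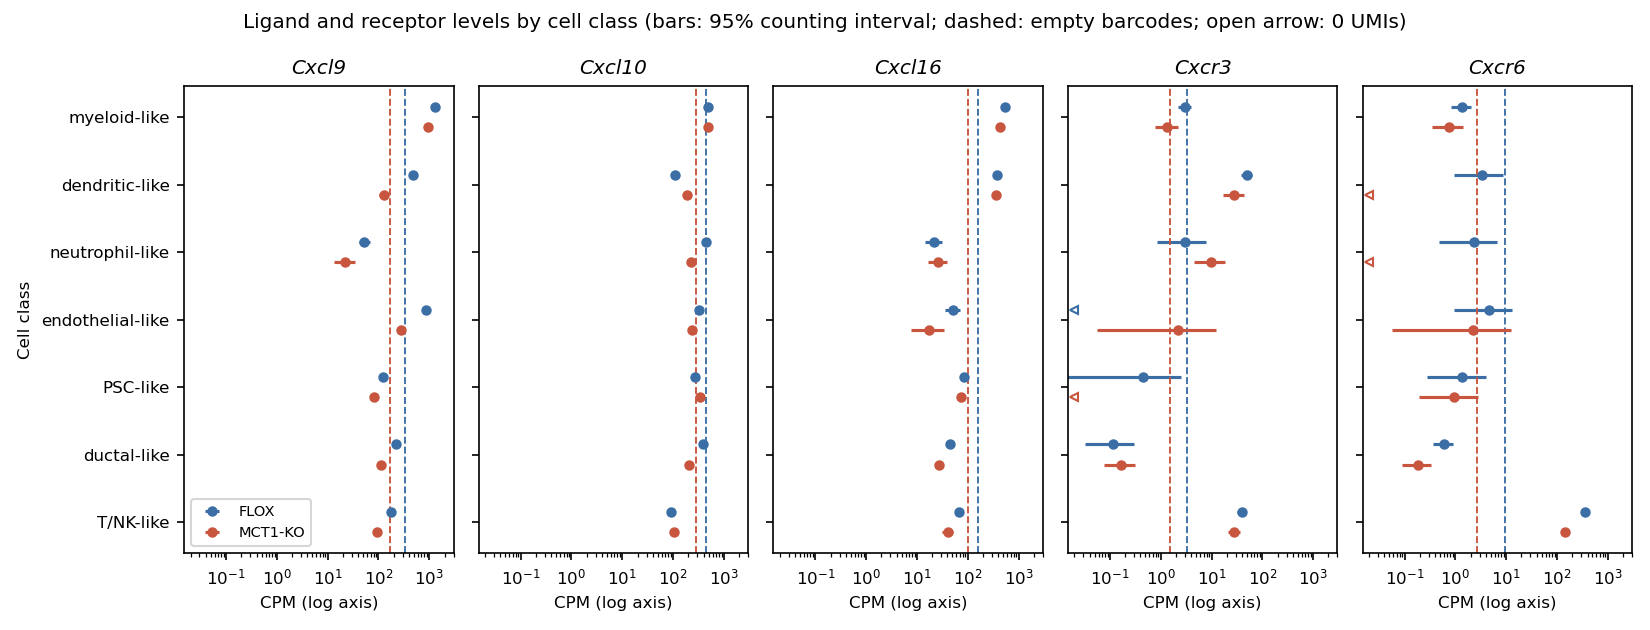
Level of each gene in the 7 classes (CPM, log axis) in FLOX and MCT1-KO, with 95% counting intervals; dashed lines give the level in empty barcodes and an open arrow a count of 0. Cxcl9 and Cxcl16 were highest in myeloid-like cells, Cxcl10 differed least of the ligands between classes, and Cxcr6 stood out in T/NK-like cells at 353 and 145 CPM.

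Cxcl10 was spread over more classes. Myeloid-like cells had 478 CPM (467 to 489) and 489 CPM (477 to 502), the highest class level in both libraries. In FLOX the neutrophil-like level of 445 CPM overlapped it within counting error, followed by ductal-like cells at 380 CPM, endothelial-like cells at 329 CPM and PSC-like cells at 267 CPM. In MCT1-KO PSC-like cells came next after myeloid-like cells, with 345 CPM (325 to 366). Endothelial-like cells then had 239 CPM, neutrophil-like cells 223 CPM and ductal-like cells 209 CPM, with intervals that overlapped from each to the next. Free RNA held 441 and 282 CPM of Cxcl10. Beyond counting error only myeloid-like cells were above it in FLOX, and myeloid-like and PSC-like cells in MCT1-KO.

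Cxcl10 ranked some of the clusters differently from Cxcl9. In cluster 16, the ductal-like cells led by GTPase genes, Cxcl10 was at 2876 CPM (2801 to 2953) and 1890 CPM (1831 to 1951), the highest of all clusters in both libraries. In 3.15% and 2.49% of all kept UMIs this cluster held 24.2% and 19.5% of the Cxcl10 UMIs. Among myeloid-like cells clusters 1 and 7 changed places: cluster 7 had 794 and 1034 CPM of Cxcl10, and cluster 1 had 303 and 291 CPM. The dividing cluster 14 was high in this gene too, with 849 and 632 CPM. Cluster 10 was the lowest of the myeloid-like clusters in both genes, with 257 and 155 CPM of Cxcl10 and 655 and 291 CPM of Cxcl9. Neutrophil-like cells split as well. Cluster 8, led by Hdc, Il1r2 and Il23a, had 652 and 279 CPM of Cxcl10, whereas cluster 12, led by the granule genes Retnlg, S100a8 and S100a9, had 169 and 147 CPM. Of the PSC-like cells, the collagen-producing cluster 11 had 276 and 353 CPM, and the 16 and 24 cells of cluster 24, led by the mural cell genes Rgs5 and Myh11, had 115 and 174 CPM.

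The number of Cxcl10 UMIs per Cxcl9 UMI shows the same split. It was lowest in cluster 1, at 0.191 (0.183 to 0.198) and 0.230 (0.218 to 0.242), and 1.08 and 1.74 in cluster 7. Ductal-like cells had 1.70 and 1.84 and PSC-like cells 2.17 (1.88 to 2.51) and 4.24 (3.70 to 4.87), beside 1.30 and 1.64 in free RNA. In neutrophil-like cells it was 8.43 and 10.2. This number was higher in MCT1-KO in each of these classes and clusters, with intervals that overlapped in neutrophil-like cells. In dendritic-like cells 129 Cxcl10 UMIs stood beside 563 of Cxcl9 in FLOX and 132 beside 88 in MCT1-KO, but Cxcl10 lay below free RNA there in both libraries, and Cxcl9 in MCT1-KO. Some clusters went the other way, among them cluster 16 with 1.81 (1.73 to 1.89) and 1.46 (1.39 to 1.53) and ductal-like cluster 5 with 1.70 (1.58 to 1.82) and 1.39 (1.31 to 1.48). Cluster 14 did so with intervals that overlapped, 0.677 (0.637 to 0.719) and 0.589 (0.536 to 0.647).

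**Figure D2:**
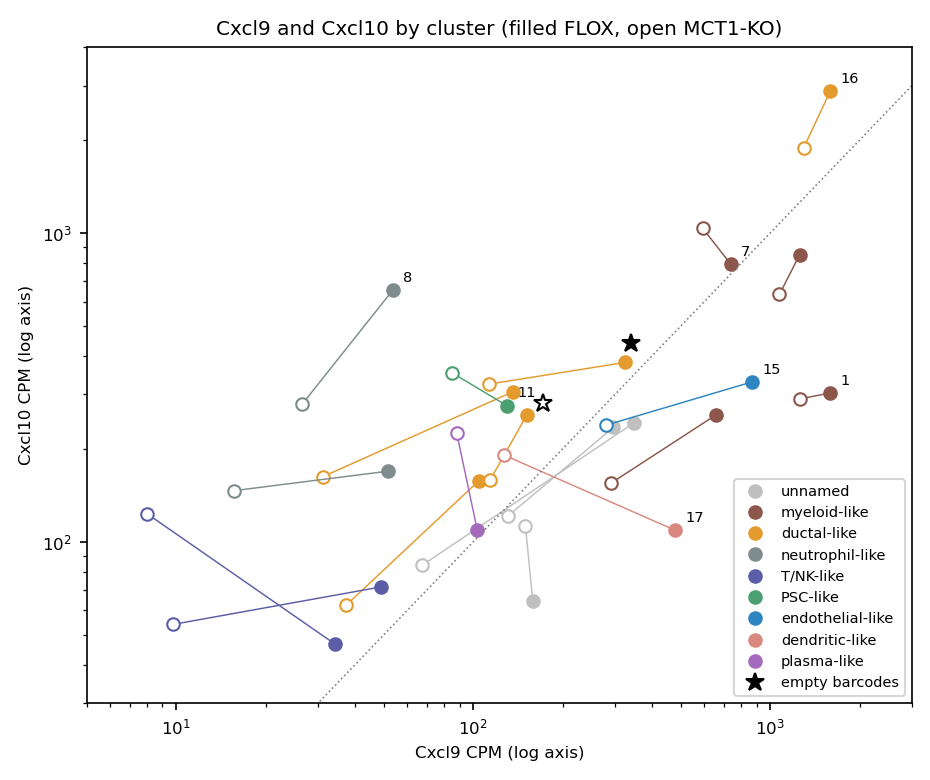
Cxcl10 against Cxcl9 (CPM, log axes) in clusters with at least 20 cells per library, colored by class, with filled points for FLOX and open points for MCT1-KO. Smaller clusters, among them cluster 22, and the acinar-like and B-like clusters are not drawn. Stars are empty barcodes and the dotted line marks equal levels. Cluster 1 lies far below the line, neutrophil-like cluster 8 far above it, and cluster 16 at the upper right with 2876 and 1890 CPM of Cxcl10.

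Cxcl16 was a gene of myeloid-like and dendritic-like cells. Its level was 543 CPM (532 to 555) and 432 CPM (420 to 444) in the former, and 370 CPM (336 to 406) and 359 CPM (315 to 406) in the latter. Both stood above free RNA, which had 161 and 100 CPM, and the other 5 classes lay below it in both libraries. PSC-like cells had 83.4 and 72.2 CPM, ductal-like cells 45.2 and 27.4 CPM and neutrophil-like cells 21.4 and 26.4 CPM. Within the myeloid-like cells cluster 1 had 597 and 545 CPM, cluster 14 533 and 368 CPM, cluster 7 480 and 366 CPM and cluster 10, the lowest, 249.6 and 197 CPM. The GTPase-rich cluster 16 had only 62.2 and 42.4 CPM. Zmynd15, on the other strand at the Cxcl16 locus, had 12.1% and 10.03% as many UMIs as Cxcl16.

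How a ligand was spread over cells differed as well. Among myeloid-like cells thinned to 1000 UMIs, Cxcl16 was found in 40.8% and 35.4%, Cxcl9 in 39.9% and 23.9% and Cxcl10 in 19.0% and 18.8%. Without thinning the shares were 81.2% and 77.3%, 61.0% and 38.3%, and 37.9% and 30.2%, at median depths of 5863 and 4840 UMIs. The tenth of myeloid-like cells with the most UMIs of the gene held 30.3% and 29.9% of Cxcl16, 60.4% and 75.0% of Cxcl9 and 77.6% and 76.7% of Cxcl10. Cxcl16 was thus spread more evenly over these cells than the other ligands, and most Cxcl10 sat in few of them. As a background, neutrophil-like cells, low in Cxcl9 and Cxcl16, had median depths of 1471 and 1076 UMIs and, once thinned, a Cxcl9 UMI in 4.40% and 2.06% and a Cxcl16 UMI in 1.85% and 2.06%. T/NK-like cells, lowest of the 7 classes in Cxcl10 and with median depths of 3082 and 2476 UMIs, had a Cxcl10 UMI in 5.75% and 4.12% once thinned. Thinned ductal-like cells held a Cxcl9 UMI in 14.4% and 5.87% and a Cxcl10 UMI in 17.6% and 9.65%, although the level of both genes in this class lay below that of free RNA.

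In myeloid-like and ductal-like cells Cxcl9 was more frequent among cells that also had Cxcl10. A Cxcl9 UMI was present in 48.5% (43.8 to 53.2) and 31.8% (27.3 to 36.7) of thinned myeloid-like cells with Cxcl10, and in 37.9% (35.7 to 40.1) and 22.1% (20.1 to 24.1) of those without. In ductal-like cells these shares were 24.5% and 18.4% with Cxcl10, and 12.3% and 4.52% without it. PSC-like cells did not show this. Of those with a Cxcl10 UMI, 0 of 32 in FLOX (0 to 10.9%) and 3 of 67 in MCT1-KO (0.933 to 12.5%) had a Cxcl9 UMI, beside 12.0% (7.58 to 17.8) and 3.77% (1.96 to 6.50) of those without. With Cxcl16 the difference in myeloid-like cells was smaller, 40.8% and 27.7% against 39.3% and 21.8%.

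Most ligand UMIs were in 2 classes. Myeloid-like cells held 66.1% and 59.3% of the Cxcl9 UMIs in kept cells, and 76.4% and 68.6% of the Cxcl16 UMIs, from 25.6% and 14.5% of all UMIs. Ductal-like cells held 56.4% and 57.8% of the Cxcl10 UMIs from 55.7% and 67.0% of all UMIs, and myeloid-like cells 32.6% and 29.4%. PSC-like cells, the cells in which the Cre driver is active, held 0.886% and 1.38% of Cxcl9 and 2.60% and 5.53% of Cxcl10 from 3.65% and 3.87% of all UMIs. These shares moved with the sizes and depths of the classes and with how cells were called. With classes called per cell by marker lists, PSC-like cells held 7.01% and 3.75% of Cxcl9 and 15.9% and 8.35% of Cxcl10, and with free RNA subtracted by acinar genes 0.143% and 1.11% of Cxcl9. Without the upper limit on genes ductal-like cells held 78.9% and 71.8% of Cxcl10. They then also held more of Cxcl9, 47.9% and 50.6%, than myeloid-like cells, whose share fell to 45.2% and 42.4%.

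**Figure D3:**
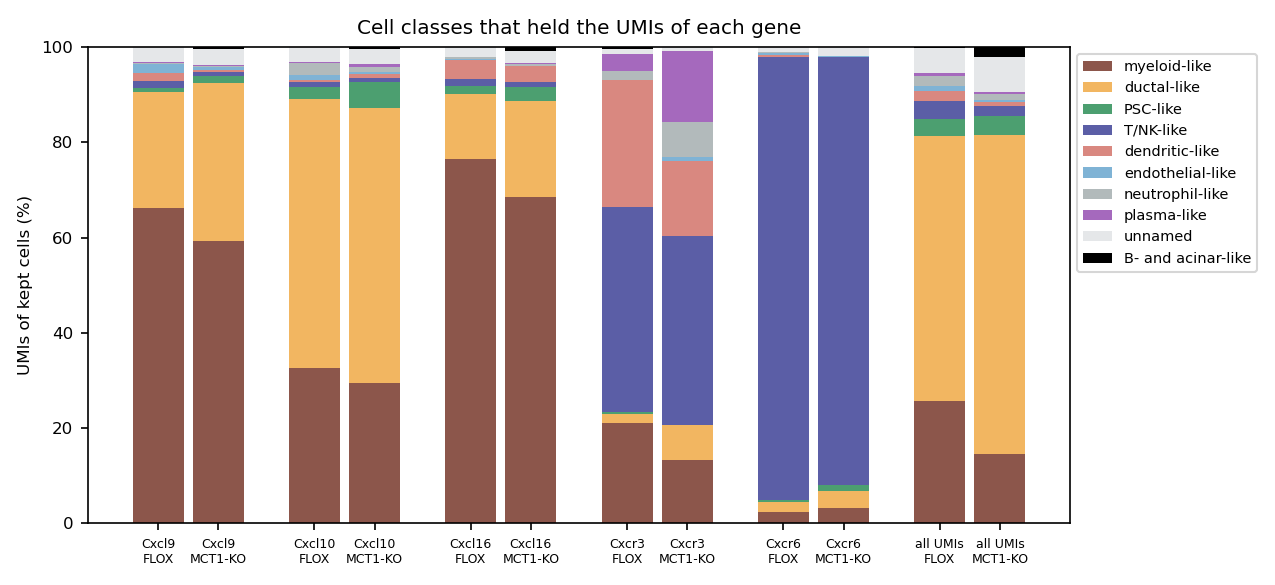
Share of each gene's UMIs (percent of kept cells' UMIs) that lay in each class, for FLOX and MCT1-KO, beside the share of all UMIs. Myeloid-like cells held 66.1% and 59.3% of Cxcl9, ductal-like cells 56.4% and 57.8% of Cxcl10, and T/NK-like cells 93.0% and 89.9% of Cxcr6.

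The receptor Cxcr6 was almost confined to T/NK-like cells among the classes measured, which held 93.0% and 89.9% of its UMIs. Its level there was 353 CPM (330 to 378) in FLOX, from 834 UMIs, and 145 CPM (127 to 164) in MCT1-KO, from 248 UMIs. In each of the other 6 classes it was below 5 CPM, and free RNA held 9.57 and 2.65 CPM. After thinning 29.5% and 12.8% of T/NK-like cells had a Cxcr6 UMI, beside 0.042% and 0.143% of myeloid-like cells, which should lack it. The ratio of the 2 libraries was 0.410 (0.354 to 0.473). Fyco1, which overlaps the locus on the other strand, had 712 and 733 UMIs in all kept cells, beside 897 and 276 of Cxcr6.

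The lower Cxcr6 level in MCT1-KO was seen in each T cell subset with over 50 cells. Cells with Cd8a or Cd8b1 and no Cd4 (CD8+) numbered 344 and 233 and had 404 and 168 CPM, with a ratio of 0.415 (0.347 to 0.494). CD4+ cells without Foxp3 had 330 and 135 CPM, a ratio of 0.407 (0.267 to 0.603), and the remaining T/NK-like cells 247 and 130 CPM, a ratio of 0.525 (0.365 to 0.748). Split by Pdcd1, which encodes the inhibitory receptor PD-1, CD8+ cells with a Pdcd1 UMI had 405 and 178 CPM and those without 401 and 152 CPM. These levels were close within each library, but a Cxcr6 UMI was found in more of the cells with Pdcd1, 70.8% and 51.2%, than of those without, 59.5% and 33.9%. The former were also deeper, with medians of 3632 and 3473 UMIs against 2713 and 2653. NK cells, 20 and 31 cells, had 4 and 0 UMIs of Cxcr6. Cluster 9, the largest T/NK-like cluster, had 412 and 165 CPM, and cluster 21, led by Nkg7, Trbc2 and Ikzf2, 273 and 67.7 CPM. Leaving out cluster 22 gave 374 and 150 CPM in T/NK-like cells.

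Cxcr3 was counted in far fewer UMIs, 218 and 121 in all kept cells, and of the 7 classes it was highest in T/NK-like and dendritic-like cells. T/NK-like cells had 39.8 CPM (32.2 to 48.7) and 28.0 CPM (20.6 to 37.1), and dendritic-like cells 49.1 CPM (37.3 to 63.5) and 27.5 CPM (16.5 to 42.9), so the intervals of these classes overlapped in both libraries. Free RNA held 3.28 and 1.503 CPM, and myeloid-like cells 2.94 and 1.35 CPM. In neutrophil-like cells it rested on 4 UMIs at 3.06 CPM (0.833 to 7.83) in FLOX, and on 9 at 9.90 CPM (4.53 to 18.8), above free RNA, in MCT1-KO. The dendritic-like cluster was led by Ccl17, Plet1 and Xcr1. T/NK-like markers summed to 146 and 36.1 CPM in it, beside 6808 and 5299 CPM in T/NK-like cells, and 2 and 7 of the 12 markers were at 0. In the 71 and 91 dendritic-like cells with no UMI of these markers Cxcr3 was at 57.5 CPM (41.4 to 77.7) and 32.4 CPM (19.2 to 51.2), and Cxcr6 had no UMI. The 35 and 58 plasma-like cells held 8 and 18 Cxcr3 UMIs, or 22.9 and 38.6 CPM.

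In T/NK-like cells the ratio of Cxcr3 between the libraries was 0.704 (0.486 to 1.01) over all cells of the class. In CD8+ cells it was at 41.3 and 19.1 CPM, with a ratio of 0.462 (0.260 to 0.785). CD4+ cells without Foxp3 had 33.2 and 43.4 CPM and a ratio of 1.31 (0.524 to 3.11). In FLOX its level was 72.3 CPM (47.6 to 105) in CD8+ cells without a Pdcd1 UMI and 30.6 CPM (21.0 to 42.9) in those with one. In MCT1-KO these were 28.3 CPM (14.1 to 50.7) and 13.2 CPM (5.68 to 25.9), with intervals that overlapped. After thinning, 4.27% and 4.12% of T/NK-like cells had a Cxcr3 UMI. It was in 1.26% and 3.39% of those with Cxcr6 and in 5.53% and 4.23% of those without, from only 2 cells with both receptors in each library and with overlapping intervals.

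**Figure D4:**
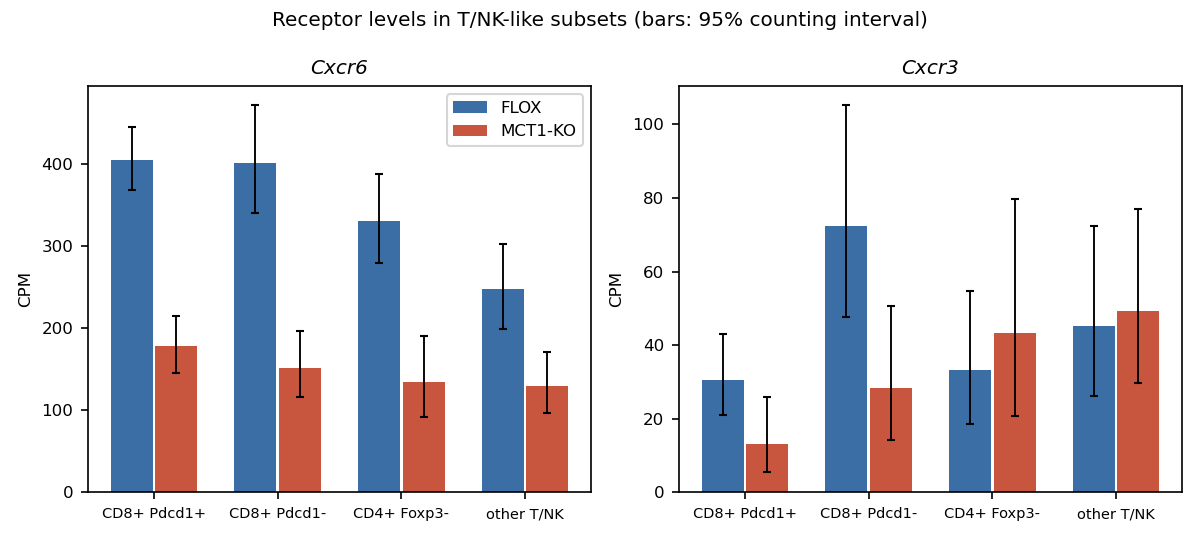
Level of Cxcr6 and Cxcr3 (CPM, axes from 0) in CD8+ cells with and without a Pdcd1 UMI, CD4+ cells without Foxp3 and other T/NK-like cells, with 95% counting intervals. Cxcr6 was lower in MCT1-KO in each subset shown, while Cxcr3 in CD4+ cells had 33.2 and 43.4 CPM with wide intervals.

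Between the libraries Cxcl9 had a ratio below 1 in all 7 classes, whereas Cxcl10 was lower in some classes and higher in others. A gene is counted as lower here when its CPM was at least 1.5-fold lower in MCT1-KO with an interval that left out 1, among genes with at least 50 UMIs in the class. In ductal-like cells all 3 ligands were lower, with ratios of 0.507 (Cxcl9), 0.548 (Cxcl10) and 0.605 (Cxcl16), beside 8.23% of all genes there. The 12 myeloid-like markers summed to 451 and 179 CPM in ductal-like cells, beside 23978 and 21808 CPM in myeloid-like cells. Their part in these differences was not tested. In myeloid-like cells only Cxcr3 among 4 members passed, with 46 and 16 UMIs near the level of free RNA, beside 8.36% of genes. Cxcl9 had a ratio of 0.712 (0.696 to 0.729), Cxcl16 of 0.795 (0.767 to 0.823) and Cxcl10 of 1.02 (0.988 to 1.06). In PSC-like cells 1 of 3 was lower, Cxcl9 at 0.661 (0.555 to 0.786), beside 9.97% of genes, and Cxcl10 had 1.29 (1.17 to 1.43). Neither direction held under every alternative: Cxcl9 had 2.89 with free RNA subtracted by acinar genes, and Cxcl10 had 0.709 with classes called per cell. The 12 myeloid-like markers summed to 1109 and 1262 CPM in PSC-like cells, and their part in the Cxcl9 level there was not tested. The tenth of PSC-like cells with the most Cxcl9 held 80.7% and 92.2% of its UMIs.

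In endothelial-like cells Cxcl9 was lower at 0.324 and Cxcl10, at 0.725, was not, beside 10.9% of genes. The 12 myeloid-like markers summed to 1513 and 545 CPM in this class, with 1 of them at 0 in each library, and their part in the Cxcl9 difference was not tested. In dendritic-like cells Cxcl9 was lower at 0.267 (0.211 to 0.335) and Cxcr3 at 0.559, beside 10.2% of genes. Cxcl10 was higher there at 1.75 (1.36 to 2.24), in a class where 7.66% of genes were higher by the same rule. The highest cell of MCT1-KO held 41 of 132 Cxcl10 UMIs, and the tenth of cells with the most held 76.0% and 87.9%. Once thinned, 8.11% (3.77 to 14.8) and 10.3% (5.06 to 18.1) of dendritic-like cells had a Cxcl10 UMI. In neutrophil-like cells Cxcl9 and Cxcl10 were lower, at 0.417 and 0.502, beside 8.86% of genes. Once thinned, however, 12.9% (10.5 to 15.6) and 11.7% (8.81 to 15.1) of them had a Cxcl10 UMI. The tenth of these cells with the most Cxcl10 held 90.9% and 92.6% of its UMIs. In T/NK-like cells Cxcl9, Cxcl16 and Cxcr6 were lower, beside 8.26% of genes, at 0.535, 0.607 and 0.410. Cluster 22 held most UMIs of the ligands among them, and without it the ratios were 0.211, 0.283 and 0.3997. The free RNA of the libraries differed in the same direction, with ratios of 0.507 for Cxcl9, 0.640 for Cxcl10, 0.623 for Cxcl16, 0.459 for Cxcr3 and 0.277 for Cxcr6.

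Across single clusters Cxcl9 had a ratio below 1, whatever its size, in 19 of 19 clusters with at least 20 cells in each library and 50 UMIs, with 16 intervals below 1, a median ratio of 0.496 and a range from 0.193 to 0.944. Cluster 22, with 18 cells in MCT1-KO, was not counted and had a ratio of 1.02 (0.836 to 1.25). Of the 984 genes counted as deeply in the same clusters, 14, or 1.42%, had a ratio below 1 in all of them, and the median gene in 7. The clusters share the free RNA of their library, which held 340 and 172 CPM of Cxcl9, a ratio of 0.507. Clusters 0, 2, 4, 5, 6, 8, 9, 11, 13, 19 and 20 lay below this level in both libraries. The cluster ratios are therefore not separate observations, and the part of free RNA in them was not tested. Cluster 1 had a ratio of 0.793 (0.772 to 0.816), cluster 7 of 0.807 (0.758 to 0.858) and cluster 16 of 0.814 (0.773 to 0.858), whereas the ductal-like clusters 2, 4 and 6 were at 0.358, 0.230 and 0.349 and the shallow myeloid-like cluster 10 at 0.444. Cxcl16 had a ratio below 1 in 14 of 15 clusters, from 0.286 to 1.18, and 4.46% of genes did so in at least as many. Cxcl10 was below 1 in 15 of 21, with 12 intervals below 1 and 5 above, and 20.5% of genes were below 1 in at least as many. Among the clusters above 1 were cluster 7 at 1.30 (1.24 to 1.37) and PSC-like cluster 11 at 1.28 (1.16 to 1.42), while cluster 16 was at 0.657 (0.631 to 0.685).

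**Figure D5:**
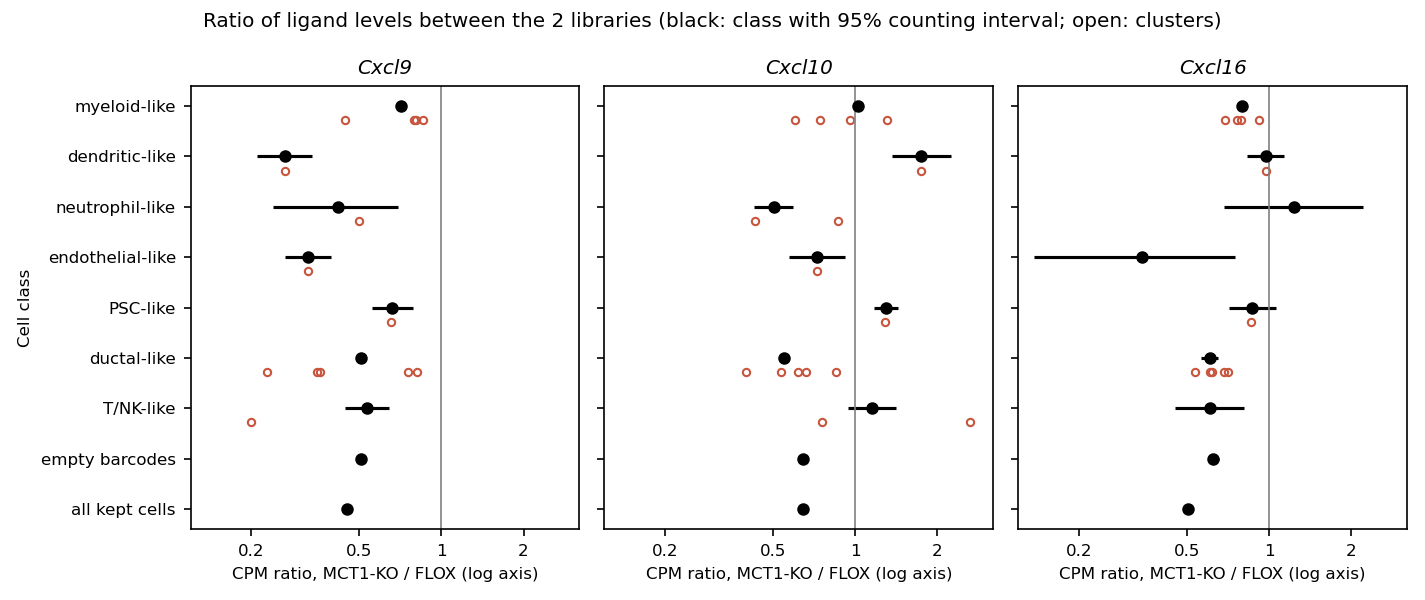
Ratio of CPM in MCT1-KO over FLOX (log axis) for the 3 ligands in each class, as black points with 95% counting intervals. Open points are single clusters of the 7 classes with at least 20 cells per library and 50 UMIs. Unnamed clusters and clusters of other classes are not drawn, nor is cluster 22, which the class T/NK-like also holds. Cxcl9 lies left of 1 throughout, from 0.199 to 0.856 over the clusters drawn, and Cxcl10 on both sides, from 0.396 to 2.64.

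Over all kept cells the ratio was 0.451 for Cxcl9, 0.645 for Cxcl10, 0.503 for Cxcl16, 0.416 for Cxcr3 and 0.231 for Cxcr6. These values join levels within classes with the make-up of the libraries. With FLOX levels in each class and only the classes' shares of UMIs taken from MCT1-KO, the ratios would be 0.753 for Cxcl9, 0.970 for Cxcl10, 0.679 for Cxcl16, 0.573 for Cxcr3 and 0.569 for Cxcr6. With FLOX shares and MCT1-KO levels they would be 0.632, 0.735, 0.767, 0.705 and 0.408 in the same order. Among kept cells, with whole classes exchanged, levels moved Cxcl9, Cxcl10 and Cxcr6 more than make-up did, and make-up moved Cxcl16 and Cxcr3 more. A shift between clusters of the same class counts as a change of level here. Cxcl9 had a ratio of 0.712 in myeloid-like cells, but 0.793, 0.807 and 0.856 in their clusters 1, 7 and 14 and 0.444 in cluster 10. The make-up of classes also depends on the upper limit on genes. Barcodes over that limit whose nearest class was ductal-like held 63481909 UMIs in FLOX and 35678157 in MCT1-KO. Kept ductal-like cells held 34043110 and 54604659 UMIs. The exchange was not tested over clusters or without the limit. The ranking of levels and make-up thus holds for kept cells and whole classes only.

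Of the list of 16 further genes of these axes, 14 are reported. Cxcl11, the third ligand of Cxcr3, could not be analysed, since none of the genes counted carried its symbol. Irf1, a transcription factor that interferon induces, was lower in ductal-like cells with 519 and 246 CPM (0.474) and in endothelial-like cells (0.545). It had 191 and 189 CPM in myeloid-like cells. Ifng, the interferon made by T and NK cells, was lower in T/NK-like cells with 382 and 105 CPM, a ratio of 0.275 (0.233 to 0.323). So was Pdcd1 (0.624), which made 2 of 13 genes tested there, beside 8.26% of all genes. Pdcd1 had a ratio of 0.592 (0.512 to 0.684) in CD8+ cells and of 1.06 (0.784 to 1.42) in CD4+ cells without Foxp3. In T/NK-like cells Tbx21, the transcription factor of Ifng-producing T cells, had 94.8 and 84.0 CPM. Dpp4, a protease that cuts Cxcr3 ligands, had 43.2 and 42.6 CPM in them. Of the proteases that release Cxcl16, Adam17 was lower in myeloid-like cells with 134 and 78.6 CPM (0.588) and in dendritic-like cells (0.595), and Adam10 had 120 and 82.1 CPM in myeloid-like cells. The counts of lower and higher genes were 1 and 0 of 9 tested in myeloid-like, 1 and 1 of 10 in ductal-like, 0 and 0 of 9 in PSC-like, 1 and 1 of 8 in endothelial-like, 2 and 1 of 11 in dendritic-like and 0 and 2 of 9 in neutrophil-like cells. Of all genes, 8.17% were higher in myeloid-like, 4.90% in ductal-like, 8.37% in PSC-like, 5.65% in endothelial-like and 11.9% in neutrophil-like cells. The 2 in neutrophil-like cells were Jak2 (1.78) and Ifngr2 (1.68), a kinase and a receptor chain of interferon-gamma signaling. The higher gene in ductal-like cells was Pdcd1 (2.14), from 37 and 127 UMIs at a level below that of free RNA.

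The genes most like each member were taken by Pearson's r of log2(CPM + 1) over 44 points, 22 clusters in each library, among 12699 genes. These points share the libraries, their depth and their free RNA. For Cxcl9 they were Bst2 (0.829), Cttnbp2nl (0.773) and Renbp (0.752), and for Cxcl10 the interferon-induced genes Gbp2 (0.784), Isg15 (0.718) and Ifit1 (0.714). For Cxcl16 they were Renbp (0.842), Shtn1 (0.840) and Zmynd15 (0.833), the last of which overlaps its locus. Cxcr6 was closest to Ifng (0.959), Cd160 (0.951) and Cd6 (0.946), all genes of T or NK cells. Cxcr3 had Rap1a (0.831), Tg (0.822) and Fcho1 (0.816) nearest. Among the members r was 0.669 for Cxcl9 and Cxcl10, 0.721 for Cxcl9 and Cxcl16, 0.516 for Cxcl10 and Cxcl16 and 0.519 for the receptors. The nearest genes changed with the points used. Over 20 points, the named classes in each library, those of Cxcl10 were Fam214b (0.829), Agtrap (0.8003) and Rab11fip5 (0.794) and those of Cxcl9 Nxpe5 (0.830), Cttnbp2nl (0.799) and Tnfrsf11a (0.798), and r was 0.499 for Cxcl9 and Cxcl10 and 0.376 for the receptors.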

How the data were processed

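Each condition was 1 library of unsorted live tumor cells. The deposited values are raw UMI counts per gene and barcode, which the authors made by trimming reads and counting UMIs with SeekOneTools, with no normalization or barcode filter. The methods name 10x Chromium or SeekOne DD, the labels SeekOne MM. Although GRCh38 is named as the build, the genes carry mouse Ensembl identifiers, so the build is not known. Positions come from GENCODE vM21 (GRCm38) by identifier, promoters from RefSeq (matched for 4 of 5 members).

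Barcodes with 500 or more UMIs, 200 to 5000 genes and up to 8% mitochondrial UMIs were kept. Doublets were not removed, except in an alternative. Cells were integrated and clustered with R 4.3.3, Matrix 1.6.5 and Seurat 5.3.0 (4.0.0 in the submitters' processing notes) on 20 dimensions at resolution 0.8, leaving out the members. Clusters were named by fixed markers; some thresholds of this naming were set after the clusters were seen. Unnamed clusters held 19.0% and 27.1% of cells. UMIs were summed per class and given as CPM with exact Poisson intervals, ratios with conditional exact intervals and shares with Clopper-Pearson intervals (scipy 1.17.1, numpy 2.4.6 and pandas 2.3.3 in python 3.11.15; scikit-learn 1.9.0 for doublet scores; matplotlib 3.10.9 for figures). For detection, cells were thinned to 1000 UMIs and shallower cells left out. On counts drawn as Poisson, which is what the interval assumes, the interval held the true ratio for 95.5% of 11339 genes at myeloid-like depth. At T/NK-like depth it did so for 96.1% of 7444 genes. This checks the computation only, since UMIs that gather in few cells, as those of the ligands did, were not simulated. Named genes are the 5 members, the list of 16 axis genes, Slc16a1 and the 3 genes most like each member. A gene of the axis list is not reported here. The members and lists were chosen with earlier results of these data known. The exchange of class make-up and levels, the count over single clusters and the split by Pdcd1 were chosen after values were seen.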

Additional observations from a re-analysis of the deposited data

How the results depend on the processing

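The ratios, MCT1-KO over FLOX, of Cxcl9 and Cxcl10 in ductal-like cells, Cxcl9 and Cxcl16 in myeloid-like cells and Cxcr3 and Cxcr6 in T/NK-like cells stayed below 1 under all alternatives run for them. PSC-like cells did not keep their direction. With free RNA subtracted by acinar genes Cxcl9 there was 2.89, Cxcl10 1.88 and Cxcl16 1.44, and with classes called per cell by marker lists Cxcl10 was 0.709 and Cxcl9 0.505. The cause was not tested. The acinar subtraction also gave 0.560 for Cxcl9 and 0.631 for Cxcl16 in myeloid-like cells, 0.537 for Cxcl9 in ductal-like cells and 0.312 for Cxcr6 in T/NK-like cells, and subtraction by collagen genes 1.06 for Cxcl10 in myeloid-like cells and 0.555 and 0.520 for Cxcl9 and Cxcl10 in ductal-like cells. Classes per cell gave 0.773, 1.07 and 0.861 for Cxcl9, Cxcl10 and Cxcl16 in myeloid-like cells and 0.475 and 0.565 for Cxcl9 and Cxcl10 in ductal-like cells. Leaving out the likeliest doublets gave 0.780, 1.09 and 0.866 in myeloid-like cells, 0.564 for Cxcl10 in ductal-like cells and 0.892 for Cxcl9 in PSC-like cells. A mean over cells gave 0.672, 1.14 and 0.870 in myeloid-like cells, 0.463 and 0.587 in ductal-like cells, and 0.529 for Cxcl9 and 1.17 for Cxcl16 in PSC-like cells. A mitochondrial limit of 5% gave 0.730 for Cxcl9 in myeloid-like cells. Without the upper limit on genes, an alternative chosen after seeing the data, the values were 0.750, 1.08 and 0.852 in myeloid-like and 0.625 and 0.597 in ductal-like cells.

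With 1 library per condition no value has a replicate check, and the libraries cannot be told apart from the conditions. No paired analysis was possible because each group has 1 library. Depth limited Cxcr3 most, with 94 and 48 UMIs in T/NK-like cells. The CPM of Cxcl9 and Cxcl16 was higher in free RNA than in PSC-like cells, for Cxcl9 340 and 172 CPM beside 123 and 81.4 CPM. Acinar genes put free RNA at no more than 31.4% and 11.5% of all UMIs of these cells, which is not the part of a ligand's UMIs. Subtracting free RNA by these genes took the PSC-like share of Cxcl9 UMIs in FLOX from 0.886% to 0.143%.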

Other observations

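Many ligand UMIs lay outside the kept cells. Kept cells held 48.1% and 58.8% of all Cxcl9 UMIs in FLOX and MCT1-KO, 32.0% and 50.2% of the Cxcl10 UMIs and 51.8% and 65.7% of the Cxcl16 UMIs. For the receptors the shares were 55.6% and 72.9% (Cxcr3) and 64.4% and 73.4% (Cxcr6). Barcodes with over 5000 genes whose nearest class was ductal-like, 1962 and 1174 of them, held 27047 and 10710 UMIs of Cxcl10 and 15312 and 7082 of Cxcl9. For Cxcl10 this was more than all 8739 kept FLOX cells held, 22935 UMIs. Empty barcodes held 13723 and 7138 UMIs of Cxcl10.

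Cxcl9 and Cxcl10 were seen at 865 and 280 CPM and at 329 and 239 CPM in endothelial-like cells, the class with the second highest Cxcl9. The tenth of these cells with the most Cxcl9 held 76.3% and 93.0% of its UMIs, and a Cxcl9 UMI was in 37.5% (28.8 to 46.8) and 16.6% (10.9 to 23.6) of them at median depths of 4097 and 1830 UMIs.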
